A study of Homo sapiens with 6 samples.

Results

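Human chromosome 19 carries the largest family of zinc finger genes in the genome, and the protein-coding genes of that chromosome whose symbols begin with ZNF and a digit are described here in myeloma cells with reduced PRMT1. The rule for members used chromosome, biotype and symbol and no measured value, though earlier results of these data were known. It gave 249 of the 58735 genes in the deposited expression table. The series held 6 RNA sequencing libraries labelled as MM.1S, an established human multiple myeloma cell line. In 3 libraries the cells had received a negative control siRNA (si-NC, the control group) and in 3 an siRNA against PRMT1 (si-PRMT1, the knockdown group), each at 100 nM and collected 72 h after transfection. PRMT1 is the main enzyme that places asymmetric dimethyl marks on arginine residues, and the series sought genes that respond to its loss. The labels do not name the siRNA sequence or say whether replicates were separate cultures, so that p-values measure the spread between these libraries, which may be technical. A knockdown of this kind leaves residual PRMT1 and was made in 1 cell line.

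A C2H2 zinc finger is a short loop of protein held by a zinc ion through paired cysteines and histidines, and a row of such fingers reads a stretch of DNA. Most ZNF genes of chromosome 19 arose by repeated duplication, lie in dense clusters, and also encode a KRAB domain at the start of the protein. The KRAB domain binds TRIM28 (KAP1), a scaffold that brings the histone H3 lysine 9 methyltransferase SETDB1, HP1 proteins and the NuRD deacetylase complex to the bound DNA. Many members silence transposable elements in this way, and in most tissues they are transcribed at low levels.

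The targeted gene was measured first. In control cells PRMT1 stood at 61.7, 62.8 and 58.9 FPKM (read fragments scaled to gene length and library size). After knockdown it was 13.3, 14.0 and 12.5 FPKM, so the groups lay far apart. Its difference of log2(FPKM + 1) was -2.13 (SE 0.06, limma adjusted p = 2.77e-05), in the direction of the labels. Between 14439217 and 16465026 reads fell on genes in each library, and 279 of 13585 tested genes passed an adjusted p of 0.05. Of the plasma cell markers, TNFRSF17 (255 to 318 FPKM over the libraries), XBP1 (258 to 292 FPKM) and IRF4 (115 to 118 FPKM) were abundant and CD38 was low (1.82 to 2.57 FPKM). MAF, an oncogene that MM.1S cells are known to express through a translocation, was listed at 0 in every library. The T cell gene CD3E was measured at 32.1 to 39.0 FPKM, whereas CD3D did not exceed 0.845 FPKM and CD2 did not exceed 0.0369 FPKM, and the B cell gene MS4A1 was at 0. The reason for the absence of MAF and the level of CD3E was not tested. Whether the cells were the line that the labels name was not tested either, so the name MM.1S rests on the labels.

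The ZNF genes of chromosome 19 differed little between knockdown and control cells. Of the 249 members, 146 reached a mean of 1 FPKM over the 6 libraries and were tested, 103 were below it, and 14 of these were listed at 0 in every library. Among the tested members, 2 had a mean of at least 1 FPKM only in knockdown cells and 1 only in control cells. They thus passed the filter through the group where they were higher. No member passed an adjusted p of 0.05 in limma in either direction, where 1.07% of all tested genes were called higher and 0.986% lower. The median difference of log2(FPKM + 1), knockdown minus control, was 0.06 over the tested members and 0.01 over all genes tested. It was above 0 for 107 of the 146 members (73.3%) against 52.6% of all genes tested. Single differences ran from -0.38 to 0.45, and 83 members lay within 0.1 of no difference. The 25th and 75th percentiles were -0.01 and 0.14 for the members and -0.10 and 0.11 for all genes tested. Changes of low genes are understated on this scale.

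**Figure D1:**
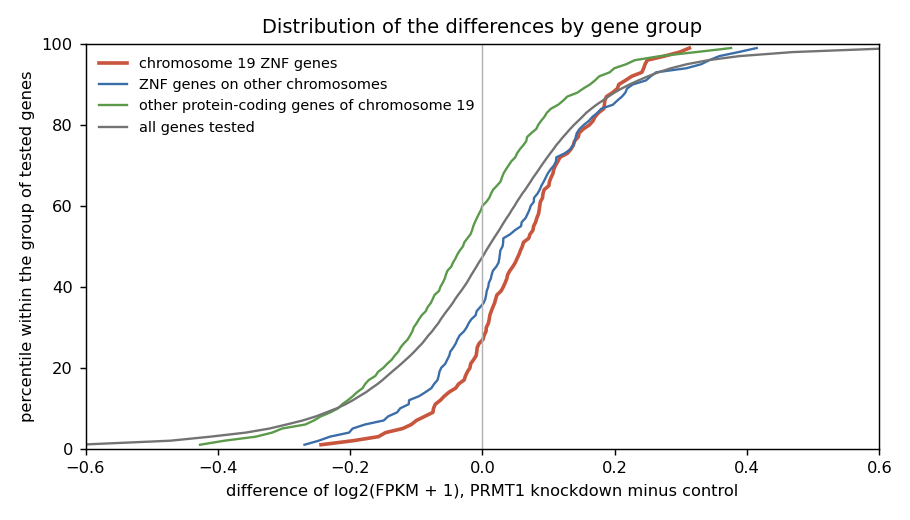
Percentiles of the difference of log2(FPKM + 1), knockdown minus control, for tested genes of 4 groups, with the difference on the horizontal axis and the percentile within the group on the vertical axis. The curve of the 146 chromosome 19 ZNF genes crosses its median at 0.06, to the right of all genes tested at 0.01, and its ends lie inside those of all genes tested.

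The same distribution was set beside its nearest neighbours. ZNF genes on other chromosomes had a median difference of 0.03 over 180 tested genes, with 64.4% above 0. Other protein-coding genes of chromosome 19, which are richer in GC (median 60.2% of transcript bases against 42.4% for the tested members), had a median of -0.03 over 641 tested genes, with 39.9% above 0. Of the zinc finger genes of chromosome 19 with other names, 7 of 20 were tested and their median was -0.01. These shares are a description of the groups, since genes of one library are not independent replicates.

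At an unadjusted p of 0.05 in limma, 11 members were higher (7.53% of those tested, against 10.1% of all tested genes) and 2 were lower (1.37%, against 9.47%). All 3 knockdown libraries lay above all 3 control libraries for 20 members (13.7%, against 13.6% of all tested genes) and below them for 4 members (2.74%, against 12.3%). The share of members on the higher side was thus close to or under that of all genes, and the share on the lower side was smaller than that of all genes. The 2 sets differed in level, with a median mean of 2.89 FPKM for the tested members and 6.31 FPKM for all tested genes. The shares were not matched for level, and no test was made over the list. When the reads behind the FPKM values were recovered and weighted with limma's voom, 2 members were called higher (3.02% of all tested genes were) and 1 lower (3.53% of all tested genes were): ZNF675 (adjusted p = 0.0169), ZNF726 (adjusted p = 0.0351) and, on the lower side, ZNF548 (adjusted p = 0.0493).

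The genes were not spread evenly along the chromosome. Splitting the members wherever more than 1 Mb separated neighbours gave 16 clusters, numbered from the short-arm end, and the difference varied among them. The 2 clusters with the highest medians among those with at least 9 tested members were cluster 5, at chr19:19668796-24129961 (hg38) next to the centromere, and cluster 3, at chr19:11483427-12640098. In cluster 5, 24 of 37 members were tested, 22 were above 0 and the median difference was 0.16. In cluster 3, 14 of 26 members were tested, 13 were above 0 and the median was 0.10. The 2 largest clusters, toward the long-arm end, stood close to all genes. Cluster 15 (chr19:51571298-53580269) had a median of 0.02 over 23 tested members, and cluster 16 (chr19:55476332-58481230) had a median of 0.01 over 43, of which 23 were above 0. The median was 0.09 over 9 members of cluster 2 and 0.06 over 12 members of cluster 9.

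**Figure D2:**
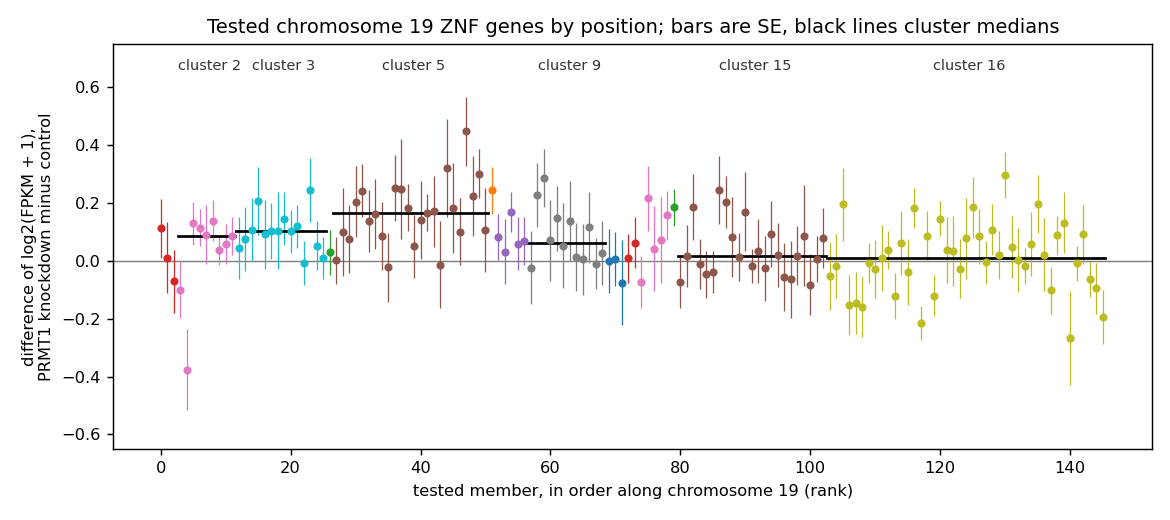
Difference of log2(FPKM + 1), knockdown minus control, on the vertical axis for each of the 146 tested members in their order along chromosome 19, with SE as bars and the cluster median as a black line for clusters with 9 or more tested members; colours only set neighbouring clusters apart. Cluster 5 has the highest of these lines, at 0.16, and clusters 15 and 16 lie at 0.02 and 0.01.

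The promoters of the members also differed by cluster. RefSeq promoters (300 bases, 250 before and 50 after the start of transcription, GRCh38.p14) were found by symbol for 217 of the 249 members. The letters CCAATCA, on either strand, are an extended form of the CCAAT box that the factor NF-Y is known to bind. They stood in the promoters of 29 of 29 cluster 5 genes and 23 of 25 cluster 3 genes. The counts were 5 of 54 in cluster 16, 2 of 33 in cluster 15 and 0 of 24 in cluster 9. Cluster 2, with a median difference of 0.09, had CCAATCA in 0 of 14 promoters. It was in 4 of 5 promoters of cluster 1 and 2 of 2 of cluster 11. Their medians were 0.01 and 0.04, over 3 and 2 tested members. Over all 27305 genes with a promoter in RefSeq the share was 8.35%, and over the members it was 30.4%. The shorter CCAAT, which lies within CCAATCA, was in the promoters of 57.1% of the members and 39.7% of all genes. By cluster it stood, on either strand, in 29 of 29 promoters of cluster 5 and 24 of 25 of cluster 3. It was also in 33 of 54 of cluster 16, 11 of 33 of cluster 15 and 7 of 24 of cluster 9. The motif was picked after the sequences had been seen, and a match is a description, not a measured site. Printed 5′ to 3′ on the strand of the gene, with CCAATCA in capitals, are 3 promoters of cluster 5, of ZNF675 (chr19:23687163-23687462, minus strand), ZNF726 (chr19:23914636-23914935, plus strand) and ZNF91 (chr19:23395422-23395721, minus strand), and for contrast 2 of cluster 16, of ZNF586 (chr19:57769426-57769725, plus strand) and ZNF548 (chr19:57389604-57389903, plus strand), which were among the highest and lowest members of that cluster.
ZNF675: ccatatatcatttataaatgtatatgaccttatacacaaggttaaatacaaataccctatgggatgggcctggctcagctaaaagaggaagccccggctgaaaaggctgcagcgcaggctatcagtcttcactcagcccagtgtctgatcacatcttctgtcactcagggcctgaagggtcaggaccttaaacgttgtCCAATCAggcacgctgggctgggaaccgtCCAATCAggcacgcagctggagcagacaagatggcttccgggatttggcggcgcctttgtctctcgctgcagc
ZNF726: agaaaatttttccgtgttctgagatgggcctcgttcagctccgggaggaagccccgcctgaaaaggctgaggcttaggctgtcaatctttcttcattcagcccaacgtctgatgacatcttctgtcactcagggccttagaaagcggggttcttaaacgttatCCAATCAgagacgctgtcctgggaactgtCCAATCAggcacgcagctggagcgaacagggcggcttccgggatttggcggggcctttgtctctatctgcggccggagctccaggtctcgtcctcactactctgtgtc
ZNF91: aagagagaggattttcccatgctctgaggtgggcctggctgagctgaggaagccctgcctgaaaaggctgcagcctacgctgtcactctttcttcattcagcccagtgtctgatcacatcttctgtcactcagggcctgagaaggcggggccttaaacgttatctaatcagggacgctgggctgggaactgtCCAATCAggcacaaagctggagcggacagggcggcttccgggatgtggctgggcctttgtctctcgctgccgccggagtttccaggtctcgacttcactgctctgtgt
ZNF586: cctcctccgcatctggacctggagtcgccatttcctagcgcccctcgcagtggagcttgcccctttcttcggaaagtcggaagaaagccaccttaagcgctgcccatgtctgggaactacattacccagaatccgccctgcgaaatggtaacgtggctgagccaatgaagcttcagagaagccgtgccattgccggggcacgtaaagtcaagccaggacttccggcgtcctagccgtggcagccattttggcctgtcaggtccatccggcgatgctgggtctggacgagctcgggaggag
ZNF548: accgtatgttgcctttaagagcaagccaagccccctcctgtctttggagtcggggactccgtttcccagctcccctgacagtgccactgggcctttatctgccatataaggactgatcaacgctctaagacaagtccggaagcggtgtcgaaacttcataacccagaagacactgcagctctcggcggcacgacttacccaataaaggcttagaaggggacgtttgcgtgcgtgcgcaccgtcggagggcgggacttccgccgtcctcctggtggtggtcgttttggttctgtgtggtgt

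The promoters of ZNF675 and ZNF726 each held CCAATCA 2 times and that of ZNF91 1 time. Those of ZNF586 and ZNF548 did not hold CCAATCA, though each held the shorter CCAAT. Among tested members with a RefSeq promoter, the 43 with the motif had a median difference of 0.10 and 38 above 0, and the 92 without it had a median of 0.03 and 61 above 0. Outside clusters 3 and 5 the motif was found for 9 tested members, and their median was 0.01. Within clusters 3 and 5 nearly every promoter held the motif, so that cluster and motif cannot be told apart there. Whether either bears on the difference was not tested.

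The member with the largest difference was ZNF675, also known as TIZ, which was described as a binding partner and inhibitor of the signalling adaptor TRAF6. Control cells gave 1.97, 2.56 and 2.60 FPKM and knockdown cells 3.36, 3.22 and 4.23 FPKM, and the groups did not overlap. Its knockdown mean was 152% of the control mean, and its difference was 0.45 (SE 0.12, limma adjusted p = 0.108). A neighbour in cluster 5, ZNF726, stood at 1.68, 1.71 and 1.91 FPKM against 2.33, 2.45 and 2.44 FPKM, again without overlap, and its difference was 0.30 (SE 0.08, limma adjusted p = 0.120). ZNF100, also of cluster 5, was measured at 1.38, 1.36 and 2.25 FPKM in control and 2.52, 1.78 and 2.65 FPKM in knockdown cells. Control 3 lay within the knockdown values (difference 0.32, SE 0.17, limma adjusted p = 0.348). ZNF85 and ZNF430, the other cluster 5 genes among the 8 highest, had differences of 0.25 each and groups that overlapped.

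Outside cluster 5, the largest difference was that of ZNF586 in cluster 16, at 5.52, 5.80 and 5.68 FPKM in control and 6.39, 7.35 and 7.91 FPKM in knockdown cells, without overlap between the groups. Its difference of 0.30 (SE 0.08) had a limma adjusted p of 0.107 and so did not pass. ZNF529 in cluster 9 was at 2.56, 3.03 and 3.07 FPKM in control and 3.57, 3.39 and 4.31 FPKM in knockdown cells (difference 0.29, SE 0.10, limma adjusted p = 0.179). ZNF616 in cluster 15 had a difference of 0.25 (SE 0.12, limma adjusted p = 0.308), with no overlap. None of the 8 highest members passed the adjusted threshold.

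Of the 8 lowest members, 7 lay in cluster 16 and 1, ZNF414, in cluster 2. ZNF414 was measured at 4.88, 7.04 and 6.67 FPKM in control and 4.68, 5.06 and 3.81 FPKM in knockdown cells, and control 1 fell below knockdown 2. Its difference was -0.38 (SE 0.14, limma adjusted p = 0.203). ZNF548 was at 5.54, 5.45 and 5.14 FPKM in control and 4.49, 4.40 and 4.57 FPKM in knockdown cells, a narrow spread with no overlap. The difference of ZNF548 was -0.22 (SE 0.06, limma adjusted p = 0.113), and its knockdown mean was 83.5% of the control mean. ZNF446 (difference -0.19) and ZNF749 (difference -0.12) also had groups without overlap, with limma adjusted p-values of 0.315 and 0.398. ZNF837 (-0.27), ZNF580 (-0.16), ZNF865 (-0.15) and ZNF784 (-0.14) had groups that overlapped. ZNF837 had a mean of 33.5 reads a library, the fewest among the tested members, and passed the filter through its control libraries. ZNF580 and ZNF581 overlap each other and CCDC106 on one strand, so their values are uncertain.

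**Figure D3:**
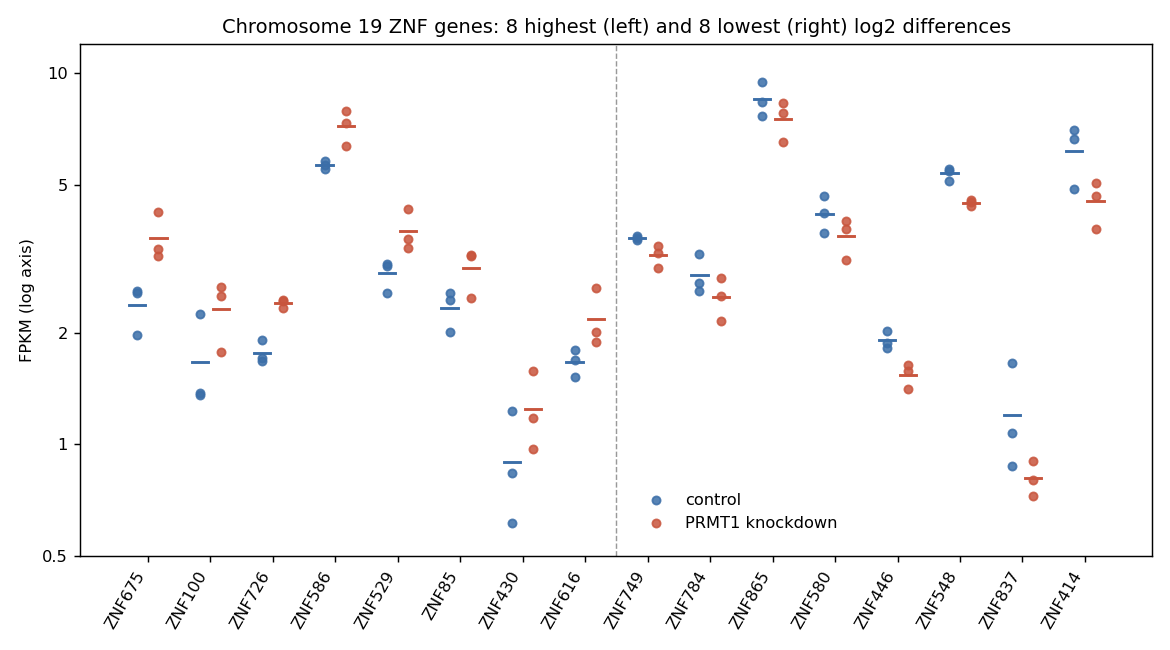
FPKM on a log axis in each of the 6 libraries for the 8 tested members with the highest differences (left of the dashed line) and the 8 with the lowest (right), with control in blue, knockdown in red and the group mean as a short line. ZNF675, ZNF726, ZNF586, ZNF529 and ZNF616 on the left and ZNF749, ZNF446 and ZNF548 on the right have groups that do not overlap.

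Members with known targets or functions were measured at low to moderate levels. ZNF91, which represses SVA retrotransposons, stood at 2.96, 3.40 and 4.20 FPKM in control and 3.95, 3.41 and 4.12 FPKM in knockdown cells, with overlapping groups (difference 0.10, limma adjusted p = 0.678). ZNF93, which represses LINE-1 elements, stood at 2.02, 1.52 and 2.21 FPKM against 2.11, 2.29 and 2.67 FPKM (difference 0.20, limma adjusted p = 0.414). Its groups overlapped as well. ZNF274, which binds the 3′ ends of other zinc finger genes and brings SETDB1 there, was at 3.92, 3.80 and 3.62 FPKM against 4.30, 3.88 and 4.07 FPKM (difference 0.09, limma adjusted p = 0.512). ZNF587 and ZNF417, a pair of close paralogs known to act on endogenous retroviruses of the HERV-K family, had differences of -0.02 and 0.06. Reads of such paralogs can be hard to assign, and how shared reads were treated is not given in the sources used here.

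ZNF473, which takes part in the processing of replication-dependent histone transcripts with the U7 particle, was at 5.24, 5.83 and 5.28 FPKM in control and 6.23, 6.64 and 6.13 FPKM in knockdown cells. The groups did not overlap, and its difference of 0.19 (SE 0.06) had a limma adjusted p of 0.176. ZNF304, a KRAB protein, was at 4.36, 4.32 and 4.31 FPKM against 4.65, 5.06 and 5.47 FPKM, also without overlap (difference 0.18, SE 0.07, limma adjusted p = 0.210). ZNF426 had a difference of 0.14 (limma adjusted p = 0.338) and groups that did not overlap. The imprinted gene ZNF331 (0.08), ZNF808 (0.17), ZNF816 (-0.06) and ZNF432 (-0.05) had overlapping groups. ZNF534, ZNF382 and ZNF257 were under the filter, with means of 0.140, 0.311 and 0.807 FPKM.

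Levels of the members were low as a family. The median of their means was 2.89 FPKM over the tested members against 6.31 FPKM over all genes tested, 27 members reached 5 FPKM and 9 reached 10 FPKM. The most abundant was ZNF146, whose protein is made almost wholly of fingers, at 19.7, 20.6 and 26.0 FPKM in control and 20.9, 19.2 and 24.9 FPKM in knockdown cells. It was followed by ZNF296 at 16.9, 17.7 and 15.1 FPKM against 20.0, 19.2 and 16.6 FPKM, then by ZNF581, ZNF121 and ZNF317 with means of 16.3, 15.9 and 11.7 FPKM. The groups overlapped for all 5, and the neighbours ZNF296, ZNF581 and ZNF121 had overlapping ranges of level over the 6 libraries. By level, tested members in the lowest tercile of means had a median difference of 0.05, those in the middle tercile 0.08 and those in the highest 0.06. ZNF296 rose when each library's GC trend was removed (difference 0.21, limma adjusted p = 0.0290), and in that fit it and ZNF548 (-0.26, limma adjusted p = 0.0483) were the members called, where 3.79% of all tested genes were called higher and 3.41% lower.

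The proteins of the members were examined through the longest coding sequence of each gene in GENCODE 29. Of the 248 genes with a complete coding sequence, 209 held letters typical of the KRAB domain and 39 did not, and the median number of C2H2 fingers was 12, with a highest of 36 in ZNF208. The deposited table classed 239 members as zf-C2H2 transcription factors and gave 10 no class. Tested members with KRAB letters numbered 121, with a median difference of 0.08 and 95 above 0. The 25 tested members without them, among them ZNF146, ZNF296, ZNF414 and ZNF581, had a median of -0.01 and 12 above 0. The 2 classes also differed in base composition, with median transcript GC of 42.0% and 57.8%.

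Base composition moved with the difference across the whole table, and the members shared in this. Across the 10107 protein-coding genes tested, Spearman's rho between transcript GC and the difference was -0.32, and over the 146 members it was -0.42, both as descriptions over genes that share libraries. In the quintile of protein-coding genes with the lowest GC, the 56 members had a median difference of 0.11 (89.3% above 0) and the 1964 other genes 0.08 (73.5% above 0). In the next quintile the medians were 0.04 for 47 members and 0.04 for 1973 others, and in the middle quintile 0.06 for 25 members and 0.01 for 1994 others. The 4th quintile held only 3 members, with a median of 0.01, and 2017 others, with a median of -0.03. In the quintile with the highest GC, the 15 members had a median of -0.06 and the 2005 others -0.04. With the GC trend of each library removed, an alternative chosen after seeing the data, the median over the members was 0.03 with 59.6% above 0, against 50.3% of all genes tested. The medians of clusters 5 and 3 were then 0.08 and 0.06, those of clusters 15 and 16 were -0.03 and 0.00, and the medians with and without KRAB letters were 0.03 and 0.02.

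**Figure D4:**
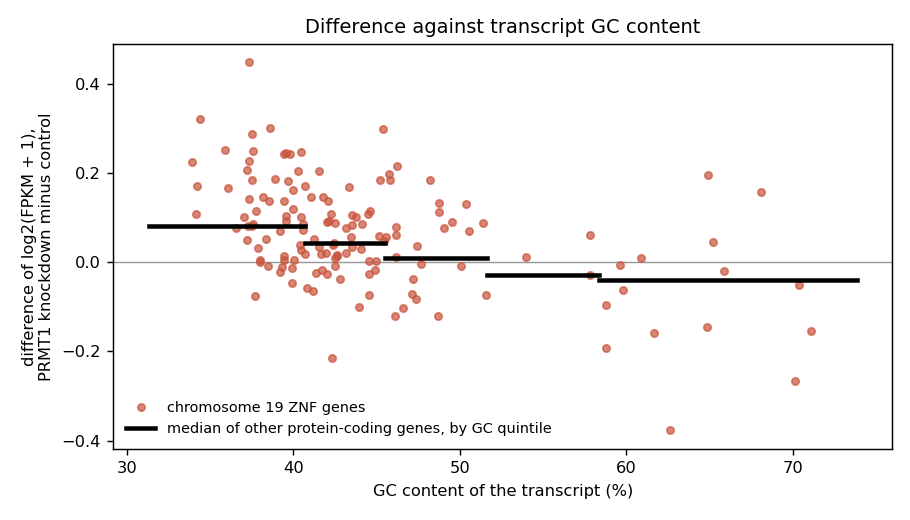
Difference of log2(FPKM + 1), knockdown minus control, on the vertical axis against the GC content of the longest transcript in percent, for the 146 tested members (points), with the median of other protein-coding genes in each GC quintile (black lines). The black lines fall from 0.08 in the lowest quintile to -0.04 in the highest. From lowest to highest quintile the medians of the members are 0.11, 0.04, 0.06, 0.01 and -0.06, so they do not fall at each step.

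The shift was not carried evenly by the libraries. Each library's median deviation of the tested members from their 6-library means, in log2(FPKM + 1), was -0.05, -0.06 and 0.03 for control 1 to 3 and 0.02, 0.01 and 0.07 for knockdown 1 to 3. Control 3 therefore lay above knockdown 1 and 2, and the groups overlapped. In cluster 5 the medians were spread more widely, at -0.15, -0.13 and 0.05 in control and 0.01, 0.04 and 0.21 in knockdown cells. Genes of the lowest GC quintile that are not members stood at -0.07, -0.09 and 0.05 against -0.01, -0.01 and 0.14, so the libraries that were high for the members were also high for other transcripts of low GC. Without control 3 the median difference of the members was 0.08, without control 2 it was 0.03, and without knockdown 3 it was 0.04. The part of base composition in the shift was not tested beyond these values.

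**Figure D5:**
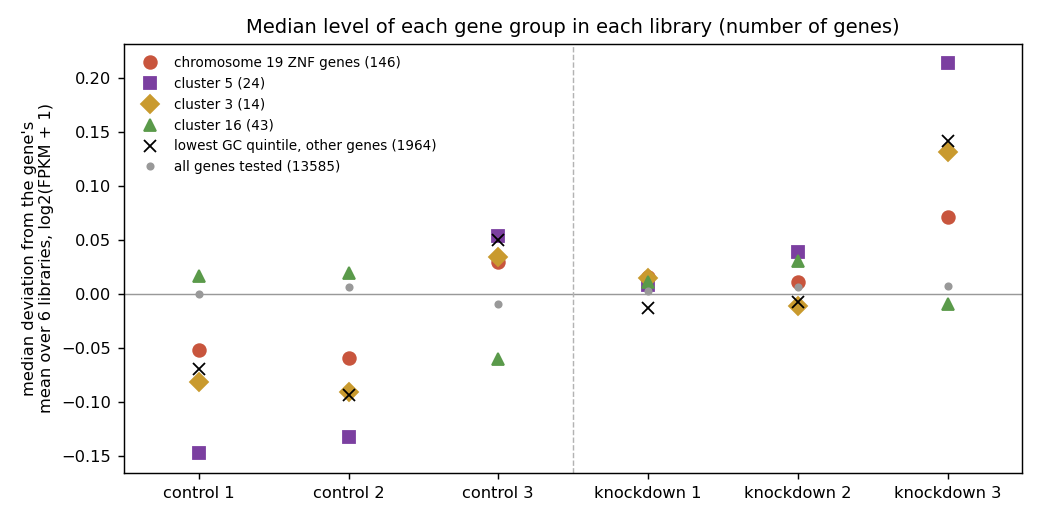
Median deviation from the gene's own mean over 6 libraries, in log2(FPKM + 1), for each library and gene group, with the number of genes in the key. Control 3 and knockdown 3 are high for the members, for clusters 3 and 5 and for other genes of the lowest GC quintile. For cluster 16 they are the lowest of their groups, at -0.06 and -0.01.

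The cofactors through which KRAB proteins act were measured at higher levels than the members, with a median mean of 14.1 FPKM. All 34 genes of a list of corepressor and heterochromatin genes were tested, and 0 passed an adjusted p of 0.05 in limma. At an unadjusted p of 0.05, 7 (20.6%) were higher and 0 lower, against 10.1% and 9.47% of all tested genes, and their median difference was 0.06. TRIM28 was at 160, 161 and 138 FPKM in control and 154, 149 and 139 FPKM in knockdown cells, with overlapping groups (difference -0.05, limma adjusted p = 0.741). SETDB1 was at 25.9, 27.9 and 25.6 FPKM against 26.2, 28.8 and 26.6 FPKM (difference 0.04, limma adjusted p = 0.765). ATF7IP, the partner that stabilizes SETDB1, stood at 3.11, 2.87 and 2.95 FPKM against 3.66, 3.95 and 4.02 FPKM without overlap, and missed the threshold (difference 0.29, SE 0.07, limma adjusted p = 0.0861). HDAC1, a deacetylase of the NuRD complex, was at 41.5, 40.4 and 40.8 FPKM against 46.1, 46.7 and 46.1 FPKM, also without overlap (difference 0.18, SE 0.04, limma adjusted p = 0.0704). On the recovered reads with voom, 1 of the 34 was called higher, ATF7IP (adjusted p = 0.0111), where 3.02% of all tested genes were. With the GC trend removed 2 of the 34 were called higher, where 3.79% of all tested genes were. These were HDAC1 and MTA1 (limma adjusted p = 0.0231 and 0.00997).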

How the data were processed

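The authors deposited 1 table with gene-level FPKM for 3 control and 3 PRMT1 knockdown libraries. The submitters' processing notes name featureCounts 1.5.0-p3 and hg38. The aligner, annotation release, strand setting and treatment of shared reads are not given in the sources used here, and 182 members overlap another gene in the table, 95 of them tested. Every FPKM value gave a whole read number (tolerance 0.01) once gene length was used. Tests were run with limma 3.58.1 in R 4.3.3 on log2(FPKM + 1) with a mean-variance trend, over genes with a mean of at least 1 FPKM, and p-values were adjusted by Benjamini-Hochberg over all of them. A difference on this scale understates changes of low genes. The script was tested on simulated data. Members, gene lists and tests were chosen with earlier results of these data known. Named members were the 8 highest and 8 lowest tested differences, the 5 highest means and a list of known genes. The design had foreseen RefSeq proteins, and GENCODE 29 coding sequences were translated in their place. A finger was a C2H2 spacing of 12 residues between pairs, and the KRAB letters were widened after the first pattern (160 members) missed known KRAB genes, so their absence shows only that these letters were not found. GC was that of each gene's longest GENCODE 29 transcript, removed by loess (span 0.3).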

Additional observations from a re-analysis of the deposited data

How the results depend on the processing

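Among 16 alternatives, the median difference of the members stayed above 0 in each. It ranged from 0.03 with no filter and with the GC trend removed to 0.09 when values were rescaled to TPM. With no trend, a replicate block or an unadjusted p, the differences are those of the main fit, so that the median could not move. Leaving out 1 library at a time gave medians from 0.03 to 0.08 and no member called. The count of members called moved from 0 to 3 (2 higher, 1 lower) with voom on reads, to 2 (1 higher, 1 lower) with the GC trend removed, and to 13 (11 higher, 2 lower) at an unadjusted p. Correlations of deviations from the group means were 0.02, 0.06 and 0.10 for libraries of the same replicate number and -0.08 to 0.02 for the others. All were small, but the same-numbered value was the highest for each library. Whether replicates were handled as pairs was not tested. A fit with a replicate block called 0 members and 204 genes against 279. Over all genes the count was 890 with voom, 977 with the GC trend removed, 473 at a mean of at least 5 FPKM, 35 with no filter, 43 with no trend and 13 to 94 with 1 library left out. Of 506 values of single named members, 12 changed sign, for 7 members with small differences. The 506 include values that could not change sign, from the settings with no trend, a replicate block, an unadjusted p or another filter. ZNF581 was 0.012 rescaled to TPM and 0.034 with the GC trend removed, where ZNF121 was -0.020. With 1 library left out, ZNF581 ranged from -0.072 to 0.040, ZNF146 from -0.124 to 0.093, ZNF587 from -0.057 to 0.017, ZNF417 from -0.041 to 0.147, ZNF816 from -0.171 to 0.074 and ZNF432 from -0.089 to 0.024. The cause was not tested. Tested members had a median of 236 mean reads a library, which with 3 libraries a group limits what can be seen of differences as small as those measured.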
